A study of Mus musculus with 6 samples.

Results

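The EphA receptors are a family of 9 genes in the mouse, *Epha1* to *Epha8* and *Epha10*, and all 9 were taken by symbol, out of 50686 gene identifiers in the count files. RNASeq was performed on 2 cultures of NSC, neural stem cells (NSC) from wild-type E16.5 embryos, and on 2 cultures labelled NSC Bmi1over, from STOPFloxBmi1;NestinCre embryos of the same age, in which Cre driven by Nestin is meant to switch on a *Bmi1* transgene in neural precursors. H3K27me3, the histone mark deposited by Polycomb repressive complex 2, was mapped by ChIPSeq in 1 library of each group. The cells came from the subventricular zone of the cerebral hemispheres and were grown as neurospheres or as an adherent layer in EGF and FGF, and the labels do not say which form each library came from. The study's glioma-initiating cells were not analysed here.

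Eph receptors are receptor tyrosine kinases that are activated by ephrins on the surface of a neighbouring cell, so that signalling requires contact. Those of the A class bind mainly the GPI-anchored ephrin A ligands, and *Epha4* also binds ephrin B ligands. In the developing brain they are known for guiding axons by repulsion, for setting up topographic maps and for keeping cell populations apart.

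The 4 RNASeq libraries held between 18112100 and 61353076 reads on genes, of which between 3635 and 13303 fell on EphA genes. *Bmi1* was at 133.3 and 123.5 CPM in NSC, against 118.6 and 112.6 CPM in the libraries labelled NSC Bmi1over. It was thus not raised in the latter (log2 fold change −0.15, standard error 0.12, adjusted p = 0.463 from edgeR's quasi-likelihood test), so that directions given here rest on the labels. Whether reads of the transgene can be counted on the mouse gene is not known. CPM are read counts scaled to the library size after normalisation by the trimmed mean of M-values (TMM). All 8 neural stem cell markers were at 1 CPM or more in every library, whereas none of the 4 microglial and none of the 5 mesenchymal markers was. By the same count it was 5 of 6 neuronal, 3 of 4 astrocyte, 4 of 6 oligodendrocyte-lineage and 1 of 4 endothelial markers. Groups of 2 cultures allow no two-sided exact permutation p below 0.333, so tests were made across all genes with edgeR.

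The 250 bases before the RefSeq start site (GRCm38.p6) held very different numbers of CG dinucleotides, the site of DNA methylation in mammals and a letter pair that reads the same on both strands. *Epha8* held 46, *Epha7* 25 (23 at its second start site), *Epha5* 20, *Epha10* 17, *Epha3* 16, *Epha6* 15, *Epha4* 14, and *Epha1* and *Epha2* 9 each. Over 32817 such stretches of all genes the median was 6, with quartiles of 2 and 16, 92.1% held at least 1 and 37.8% at least 10. More CG were thus counted at *Epha8* than in 99.7% of all stretches and at *Epha7* than in 89.3%. The stretches of 4 receptors are shown 5′ to 3′ with every CG in capitals, as these are the receptors on which the results turn: *Epha8* and *Epha7* carried H3K27me3 in both peak lists, *Epha5* was the most highly counted, and *Epha2* was the receptor called in the RNASeq comparison.
Epha8 (chr4:136956817-136957066, minus strand): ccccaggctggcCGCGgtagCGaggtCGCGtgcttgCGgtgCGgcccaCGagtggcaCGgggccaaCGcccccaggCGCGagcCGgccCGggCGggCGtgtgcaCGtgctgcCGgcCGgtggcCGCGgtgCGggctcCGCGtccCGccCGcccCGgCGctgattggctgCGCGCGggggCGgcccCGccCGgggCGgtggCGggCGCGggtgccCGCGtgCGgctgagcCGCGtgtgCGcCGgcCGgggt
Epha7 (chr4:28812881-28813130, plus strand): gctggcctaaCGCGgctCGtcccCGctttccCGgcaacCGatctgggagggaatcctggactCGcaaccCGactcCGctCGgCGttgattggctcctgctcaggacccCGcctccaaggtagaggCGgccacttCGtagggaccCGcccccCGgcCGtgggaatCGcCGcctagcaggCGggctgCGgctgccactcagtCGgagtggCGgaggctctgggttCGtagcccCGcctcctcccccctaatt
Epha5 (chr5:84417383-84417632, minus strand): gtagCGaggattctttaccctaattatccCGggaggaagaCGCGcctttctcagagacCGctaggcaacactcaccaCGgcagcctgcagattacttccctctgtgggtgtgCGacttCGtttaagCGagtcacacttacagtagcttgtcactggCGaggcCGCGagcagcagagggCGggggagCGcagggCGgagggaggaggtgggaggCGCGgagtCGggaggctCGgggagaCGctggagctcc
Epha2 (chr4:141300971-141301220, plus strand): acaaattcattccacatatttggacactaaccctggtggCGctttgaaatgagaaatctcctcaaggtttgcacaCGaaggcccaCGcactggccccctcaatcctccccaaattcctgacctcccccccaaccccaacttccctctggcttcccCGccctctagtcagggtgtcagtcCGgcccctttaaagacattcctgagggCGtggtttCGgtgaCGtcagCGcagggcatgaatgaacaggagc
The 250 bases shown for each gene overlap no annotated exon. In the *Epha8* stretch, the first 75 bases lie inside an NSC peak of H3K27me3, and the other 3 stretches lie in no peak of either list.

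*Epha5* (ENSMUSG00000029245, chr5:84054761-84417382 of mm10, minus strand), a receptor for ephrin A ligands in the developing brain, was by far the most abundant EphA transcript. On the CPM scale its NSC libraries stood at 153.1 and 158.9, and the libraries labelled NSC Bmi1over at 163.9 and 180.2. To compare genes, CPM was divided by the kilobases of annotated exon, which gave *Epha5* between 9.15 and 10.8 CPM per kilobase over the 4 libraries. The next, *Epha4*, reached at most 2.25 CPM per kilobase, so that the ranges of both did not overlap. *Epha5* made up 71.9% and 69.2% of the summed EphA level per kilobase in NSC, whereas it made up 62.2% and 60.6% in the libraries labelled NSC Bmi1over. Its mean level was above 78.0% of all protein-coding genes in the count files.

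**Figure D1:**
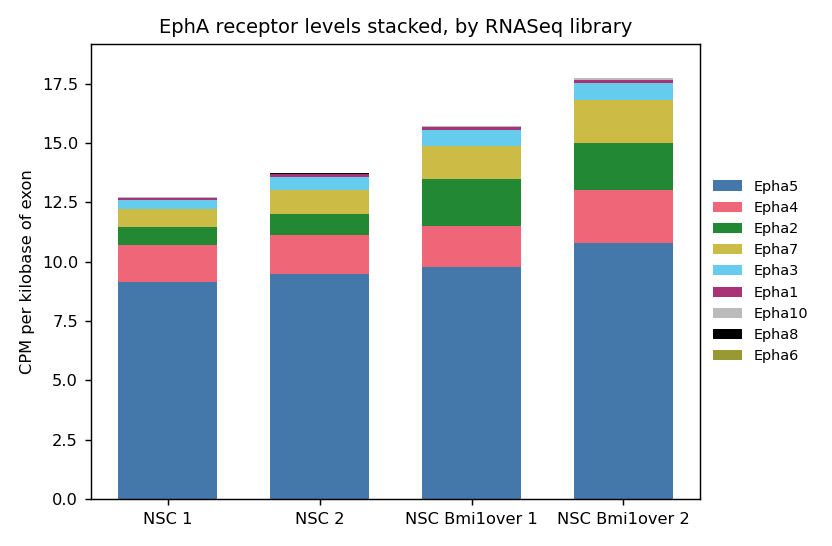
Level of each EphA receptor in CPM per kilobase of exon, stacked for each of the 4 RNASeq libraries (2 of NSC, 2 labelled NSC Bmi1over), with no error bars as each bar is 1 library. *Epha5* fills 71.9% of the first bar and 60.6% of the last.

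Below *Epha5*, 4 receptors formed a middle tier, namely *Epha4*, *Epha2*, *Epha7* and *Epha3*. Their mean levels over the 4 libraries were 1.79, 1.40, 1.24 and 0.585 CPM per kilobase. In the same order, the means were 1.594, 0.829, 0.867 and 0.4845 in NSC. In the libraries labelled NSC Bmi1over they were 1.988, 1.977, 1.61 and 0.686. Over all 4 libraries the ranges of *Epha4* and *Epha2* overlapped, as did those of *Epha2* and *Epha7*. The order of these neighbours is therefore not set across both groups, but part of it was within a group. In NSC, *Epha4* (1.542 and 1.645 CPM per kilobase) lay above *Epha2* (0.786 and 0.872), whose range overlapped that of *Epha7* (0.734 and 1.00). In the libraries labelled NSC Bmi1over, *Epha2* (1.955 and 1.999) lay above *Epha7* (1.41 and 1.81) and overlapped *Epha4* (1.723 and 2.253). *Epha3* lay just below, at 0.386 to 0.689 CPM per kilobase against 0.734 to 1.81 for *Epha7*. When the longest transcript was used as length in place of all exons, *Epha7* came before *Epha2* in the mean over the 4 libraries. *Epha5* then rose to 22.4 CPM per kilobase, since the exon union of *Epha5* measures 16739 bp. In the genome, *Epha4* (ENSMUSG00000026235) lies at chr1:77367185-77515088 and *Epha3* (ENSMUSG00000052504) at chr16:63543534-63864175, both on the minus strand.

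The last 4 receptors were at the limit of what the counts can show. *Epha1* (ENSMUSG00000029859, chr6:42358487-42373268, minus strand), the founding member, known from epithelia, and *Epha10*, whose kinase domain is held to be inactive, had mean levels of 0.108 and 0.0540 CPM per kilobase. *Epha1* was counted with 9 and 10 reads in NSC, against 7 and 35 in the libraries labelled NSC Bmi1over. *Epha10* was counted with 12 and 4 reads in NSC, against 8 and 32. The NSC Bmi1over library with the most reads of both is also the deepest, and on the CPM scale *Epha1* stayed between 0.285 and 0.613 and *Epha10* between 0.158 and 0.560. *Epha8* had 1, 1, 0 and 2 reads in the same order, and *Epha6* (ENSMUSG00000055540, chr16:59653483-60605531, minus strand), a receptor of retinal axons, had 0 reads in all 4 libraries. A count of 0 allows between 0.0525 CPM in the deepest library and 0.171 CPM in the shallowest (3 reads, for counting error only). Of the exons of *Epha1*, 6.01% overlap those of *Zyx* on the opposite strand, and with the stranded columns summed its mean level was 0.214 CPM per kilobase.

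*Epha2* (ENSMUSG00000006445, chr4:141301240-141329384, plus strand), a receptor first known from epithelial cells and studied in glioma, was the 1 receptor that passed the test between the groups, out of 7 expressed enough to be tested. Its values were 3.68 and 4.07 CPM in NSC, against 9.14 and 9.35 CPM in the libraries labelled NSC Bmi1over. Both of the latter were above both NSC libraries, with a gap larger than the spread within either group. The means were 3.88 ± 0.282 CPM (SD, n = 2) and 9.24 ± 0.145 CPM (SD, n = 2), and *Epha2* rose by a log2 fold change of 1.26 (standard error 0.20), with an edgeR quasi-likelihood p of 0.0307 after Benjamini-Hochberg adjustment over 15521 genes. Of all genes tested, 2.03% were called higher and 0.122% lower, 2.15% in either direction. *Epha2* remained called under all 12 alternatives, with an adjusted p between 5.77e-06 and 0.0472 from edgeR or DESeq2. Its share of the summed EphA level per kilobase was 6.18% and 6.35% in NSC, as against 12.4% and 11.3%. It has no H3K27me3 peak within 5 kb of a start site or in its body in either list.

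*Epha7*, which binds ephrin A5 and is expressed in cortical progenitors, did not pass the threshold. It was counted at 7.26 and 9.89 CPM in NSC, against 13.9 and 17.9 CPM in the libraries labelled NSC Bmi1over, with no overlap between the groups. The log2 fold change was 0.91 (95% interval 0.43 to 1.39), and edgeR gave it an adjusted p of 0.0634. This call depended on the setting, since 5 of 12 alternatives passed the threshold, among them DESeq2, which called 9.64% of all genes. Without NSC replicate 2 the adjusted p was 0.00332 and without NSC Bmi1over replicate 1 it was 0.0151, whereas without NSC replicate 1 it was 0.373 and without NSC Bmi1over replicate 2 it was 0.164, all from edgeR.

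**Figure D2:**
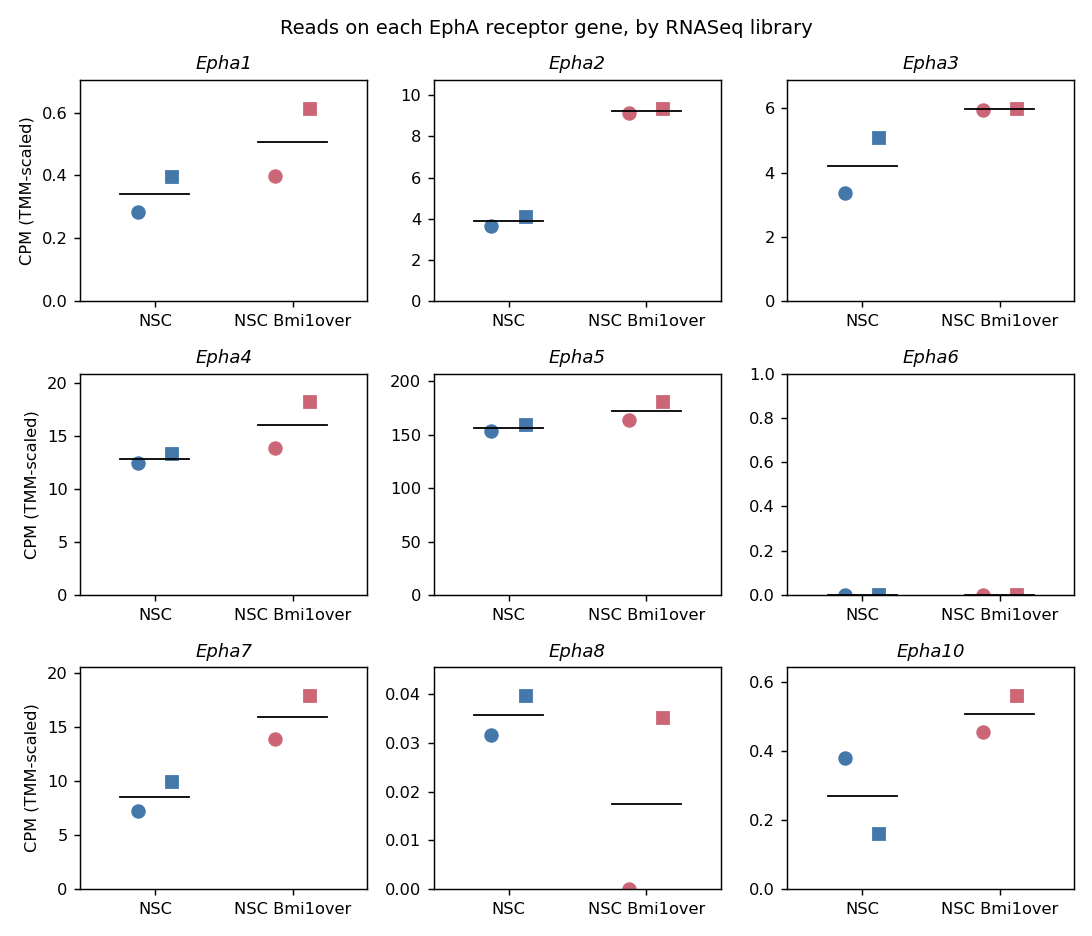
CPM of each EphA receptor in the 4 RNASeq libraries, each panel with its own linear axis from 0, with circles for replicate 1, squares for replicate 2 and a line at the group mean (n = 2). The *Epha2* values of NSC (3.68 and 4.07 CPM) lie apart from those labelled NSC Bmi1over (9.14 and 9.35 CPM), while *Epha5* stays between 153.1 and 180.2 CPM.

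The other 5 tested receptors did not pass the threshold either. *Epha4*, which mediates repulsion by ephrins of both classes, was at 12.4 and 13.2 CPM in NSC, against 13.9 and 18.1 CPM in the libraries labelled NSC Bmi1over (log2 fold change 0.33, 95% interval −0.07 to 0.73). *Epha3*, another ephrin A receptor of axon guidance, was at 3.36 and 5.06 CPM against 5.94 and 5.98 CPM (log2 fold change 0.51, standard error 0.25). *Epha5* itself had a log2 fold change of 0.14 with a 95% interval from −0.15 to 0.44. The intervals of the 2 lowest were wide, from −0.33 to 1.70 for *Epha1* and from −0.23 to 2.04 for *Epha10*. Removing 1 library moved *Epha10* to a log2 fold change of 1.70 without NSC replicate 1 and of 0.45 without NSC replicate 2.

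**Figure D3:**
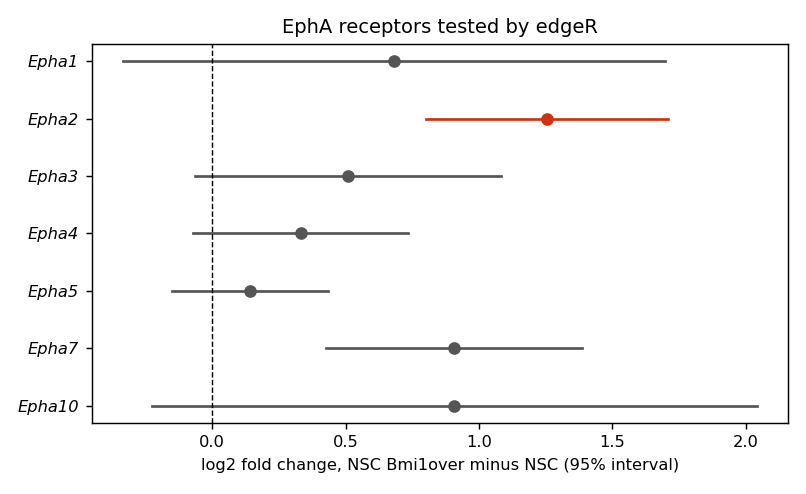
Log2 fold change of the 7 EphA receptors tested, NSC Bmi1over minus NSC, as a point with its 95% interval from edgeR's quasi-likelihood fit (2 libraries per group), with the called gene in red. *Epha2* lies at 1.26 with an interval from 0.80 to 1.71, and 5 of the intervals cross 0.

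On the TMM-scaled CPM, all 7 tested receptors had both libraries labelled NSC Bmi1over above both NSC libraries. This pattern was seen in 29% of all genes tested, and the opposite pattern in 30%. These counts were made on that scale only. For *Epha1* the gap was from 0.396 CPM in NSC replicate 2 to 0.400 CPM in NSC Bmi1over replicate 1, where 1 read is 0.0571 CPM. The median log2 fold change of the 7 receptors was 0.68, whereas the median of all genes was −0.01. That 0.68 is the value of *Epha1*, which was counted with few reads. With library size alone in place of the trimmed mean of M-values, the median of all genes moved to −0.17 and *Epha5* to −0.0080, which is 0.16 above that median. Under that scaling 64.4% of called genes were higher, against 94.3% in the main setting. The share of reads that STAR could not map also differed between the groups, at 11.2% and 13.7% in NSC, against 16.2% and 17.6% in the libraries labelled NSC Bmi1over. The 4 astrocyte markers summed to 140.4 and 110.5 CPM in NSC, against 84.6 and 65.0 CPM, with 3 of the 4 above 1 CPM in every library and *Aldh1l1* called lower. The 6 markers of the oligodendrocyte lineage summed to 1062 and 1245 CPM against 1281 and 1466 CPM. The 6 neuronal markers summed to 963.7 and 940.4 CPM in NSC, against 1008 and 921.2 CPM. Of these 6, only *Syt1* was called, and it was called higher. The highest single value was 122.2 CPM for astrocytes, 1007 CPM for the oligodendrocyte lineage and 919 CPM for neurons, so each sum can rest largely on 1 marker. The 4 endothelial markers, 1 of them at 0 in every library, summed to at most 3.17 CPM. The part of these differences in the receptor values was not tested, and in bulk samples fewer cells of a type and less RNA per cell cannot be told apart.

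By Euclidean distance between log2 CPM centred on each gene's mean over the 4 libraries, the genes nearest to *Epha2* among 13336 were *Cacna2d3* (0.0340), *Man1a* (0.0547) and *Tspan11* (0.0923). *Cacna2d3*, a calcium channel subunit, was at 21.6 and 23.5 CPM in NSC, against 51.1 and 52.7 CPM in the libraries labelled NSC Bmi1over. Nearest to *Epha5* were *Atxn7l3* (0.00223), *Ski* (0.00792) and *Rbck1* (0.0156). With 4 libraries such nearness describes these values only.

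H3K27me3 was called at 3 of the 9 receptor genes in NSC, namely *Epha7*, *Epha8* and *Epha10*, and at 2 in NSC Bmi1over, namely *Epha7* and *Epha8*. This holds for peaks within 5 kb of any annotated transcription start site (TSS) and for peaks in the gene body. With a fold enrichment of at least 5, the order turned, to 1 receptor in NSC (*Epha7*) against 2 in NSC Bmi1over (*Epha7* and *Epha8*), for promoter and gene-body peaks alike. Of all 22028 protein-coding genes, 8.83% had such a promoter peak in NSC and 4.38% in NSC Bmi1over, and 8.73% and 4.59% had a peak in the gene body. All 3 marked genes lie on chromosome 4, as does *Epha2*, which had no peak. There is 1 ChIPSeq library per group, so that no test of the lists against each other was possible, and a peak list does not give the depth of its library. The study's methods give ranges of aligned ChIPSeq reads that reach higher in NSC than in NSC Bmi1over, and say that the weaker replicates were discarded, without naming the library kept. The part of depth in the number of peaks, and in the absence of a peak at *Epha10* from the NSC Bmi1over list, was not tested. The NSC list holds 12982 peaks in all and the NSC Bmi1over list 6810.

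At *Epha7* (ENSMUSG00000028289, chr4:28813131-28967499 of mm10, plus strand), NSC had 3 promoter peaks covering 4430 bp. The widest ran from 28814144 to 28816649, over 2506 bp of intron 1 and across an internal TSS (fold enrichment 4.85, −log10 q 4.34). The highest, of 1113 bp from 28816928 to 28818040, spanned exon 2 (fold enrichment 5.61, −log10 q 5.97). The last, of 811 bp, lay upstream of the gene, from −1788 to −978 bp relative to the outermost TSS. That TSS itself was covered by no peak of either list. NSC Bmi1over had 5 promoter peaks covering 2480 bp, all downstream of it, and the widest was 1008 bp in intron 1 from 28815728 to 28816735 (fold enrichment 5.57, −log10 q 4.45). Of these 5 peaks, 3 met an NSC peak, and 2 in intron 2, with −log10 q of 2.63 and 1.96, did not.

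At *Epha8* (ENSMUSG00000028661, chr4:136929419-136956816, minus strand), a receptor known from the midbrain, 4 NSC peaks flanked the TSS and covered 3415 bp. The widest, of 1725 bp from 136956992 to 136958716, lay upstream and ended 176 bp before the TSS (fold enrichment 4.51, −log10 q 3.64). The other 3 lay in intron 1 and measured 598, 892 and 200 bp. NSC Bmi1over had 1 peak there, of 632 bp from 136955978 to 136956609 (fold enrichment 5.47, −log10 q 4.22), which shared 563 bp with the intronic NSC peak nearest the TSS. *Epha10* (ENSMUSG00000028876, chr4:124880899-124917800, plus strand) had 4 NSC peaks in its body, of which 3 lay within 5 kb of a TSS. Its widest was 764 bp from 124893998 to 124894761 (fold enrichment 4.30, −log10 q 3.19), and none lay within 1 kb of a TSS. In NSC Bmi1over no peak lay at *Epha10*, and the nearest was 85187 bp from a TSS.

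**Figure D4:**
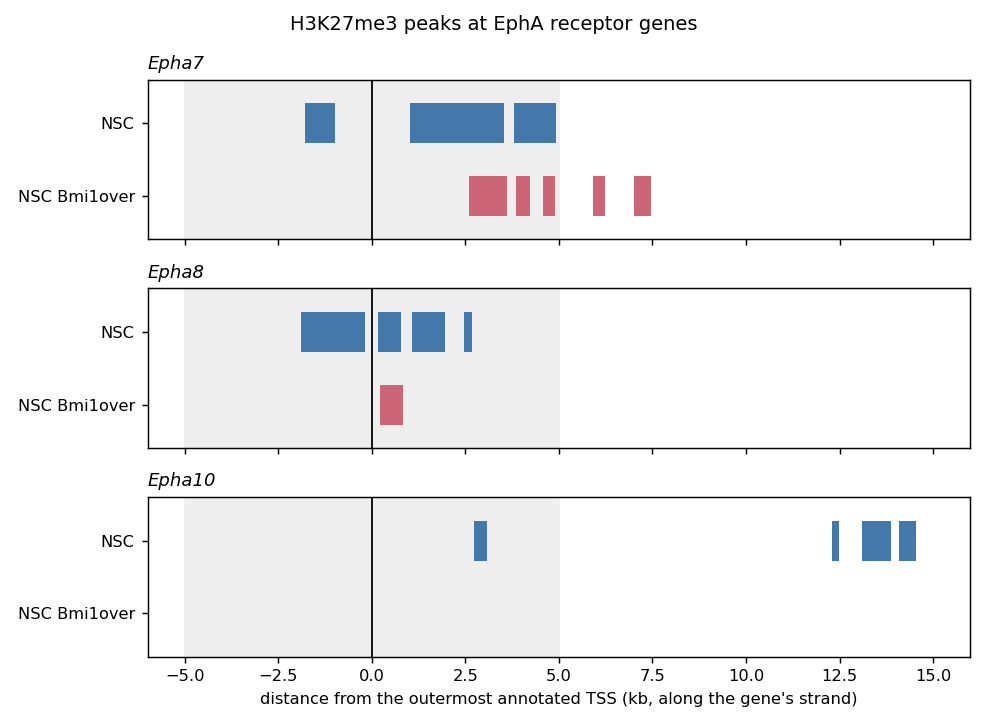
H3K27me3 peaks at *Epha7*, *Epha8* and *Epha10*, drawn to scale as bars against the distance in kb from the outermost annotated TSS along the strand of the gene, for NSC (blue) and NSC Bmi1over (red), 1 library each. Grey marks 5 kb on either side of that TSS. NSC peaks lie on both sides of the TSS at *Epha7* and *Epha8*, and *Epha10* has NSC peaks and 0 in NSC Bmi1over.

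Over the 3 genes, 11 NSC peaks and 6 NSC Bmi1over peaks were counted. The lists shared 2178 bp, which is 22.6% of the NSC and 70% of the NSC Bmi1over peak length at these genes. The fold enrichment of these peaks was between 3.86 and 5.61 in NSC and between 4.03 and 5.89 in NSC Bmi1over, and the medians of the whole lists were 4.06 and 4.80. The lists have different floors, the lowest fold enrichment of any peak being 3.52 in NSC and 4.03 in NSC Bmi1over. Of the NSC peaks at these genes, 1 at *Epha8* (3.86) and 1 at *Epha10* (3.95) lie below the floor of the other list. The middle 300 bases of the widest shared stretch at each gene are shown along the strand of the gene, with CG in capitals, to set them beside the start sites above.
Epha7 intron 1 (chr4:28816039-28816338, plus strand): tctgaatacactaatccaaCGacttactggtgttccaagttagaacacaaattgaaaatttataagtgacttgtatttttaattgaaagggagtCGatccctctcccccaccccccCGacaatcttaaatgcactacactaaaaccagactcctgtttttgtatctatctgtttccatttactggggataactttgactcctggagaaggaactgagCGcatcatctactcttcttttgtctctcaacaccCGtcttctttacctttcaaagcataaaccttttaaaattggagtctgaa
Epha8 intron 1 (chr4:136956178-136956477, minus strand): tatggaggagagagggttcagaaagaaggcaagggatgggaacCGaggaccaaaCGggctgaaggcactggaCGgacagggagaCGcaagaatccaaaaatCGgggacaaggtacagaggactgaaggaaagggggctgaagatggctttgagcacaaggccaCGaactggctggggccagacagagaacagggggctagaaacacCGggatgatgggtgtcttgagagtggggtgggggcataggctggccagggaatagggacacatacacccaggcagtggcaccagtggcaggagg
These hold 5 and 7 CG. The whole shared stretch of *Epha7*, of 922 bp, held 13 CG and a GC content of 37.4%, and that of *Epha8*, of 563 bp, held 16 CG and 60.7%.

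Receptors with the mark were found at low and at middle levels, and so were receptors without it. *Epha8* and *Epha10* were marked in NSC, where their mean levels were 0.00756 and 0.0374 CPM per kilobase, below the median of marked genes. *Epha7* was marked in both lists and stood at 0.867 CPM per kilobase in NSC and 1.61 in the libraries labelled NSC Bmi1over. Among the protein-coding genes with a promoter peak in the list of the same label, 72.6% of 1937 were below *Epha7* in NSC and 84% of 962 in NSC Bmi1over. The median of these marked genes was 0.0978 and 0.0613 CPM per kilobase, against 1.31 and 1.23 for the genes without a peak. Conversely, *Epha6* and *Epha1* had no peak in either list and were counted at 0 and at 0.108 CPM per kilobase. The nearest peak to a TSS of *Epha6* was 2455919 bp away in NSC, and that of *Epha5*, the most abundant receptor, 4108892 bp away. For *Epha2*, *Epha3* and *Epha4* it was 53070, 467558 and 437441 bp away in NSC.

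Of the 5 ephrin A ligands, which bind these receptors, all were tested and none was called by edgeR, while DESeq2, which called 9.64% of all genes, called 1, *Efna5*. An unadjusted edgeR p under 0.05 was found for 2 of the 5, against 24.2% of all genes tested. *Efna5*, a ligand of several EphA receptors, was at 1.43 and 1.23 CPM in NSC, against 2.69 and 3.24 CPM in the libraries labelled NSC Bmi1over. Both of the latter were above both NSC libraries, and the log2 fold change was 1.17 with an adjusted p of 0.0648 from edgeR, which passed the threshold in 4 of 12 alternatives. *Efna4* was at 4.91 and 5.54 CPM, against 9.31 and 7.61 CPM, again without overlap. Its adjusted p was 0.0999 from edgeR and passed in 2 of 12 alternatives. *Efna2* was the most abundant ephrin A per length, at 5.52 CPM per kilobase, with a log2 fold change of 0.15 (standard error 0.17). *Efna1* and *Efna3* had log2 fold changes of 0.50 (standard error 0.29) and −0.06 (standard error 0.22), and that of *Efna3* changed sign with the stranded columns summed (0.065). The 3 ephrin B ligands were tested as well, with log2 fold changes from 0.44 to 0.90. None was called by edgeR, 2 had an unadjusted p under 0.05 (24.2% of all genes), and DESeq2 called 1 (9.64% of all genes), *Efnb2*, a ligand of *Ephb4*.

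The 5 EphB receptors, the other class of the family, were all tested, and edgeR called 1, *Ephb4* (2.15% of all genes), whereas DESeq2 called 3 (9.64% of all genes). An unadjusted edgeR p under 0.05 was found for 4 of the 5, against 24.2% of all genes. All 5 were fitted higher, and their median log2 fold change was 0.54. That of the 7 EphA receptors tested was 0.68, the value of the sparsely counted *Epha1*. In 4 of the 5, both libraries labelled NSC Bmi1over were above both NSC libraries, against 29% of all genes. *Ephb4*, a receptor for ephrin B2 known from veins, was at 24.5 and 24.2 CPM in NSC, against 47.7 and 47.8 CPM in the libraries labelled NSC Bmi1over. It rose by a log2 fold change of 0.97 (standard error 0.12, edgeR adjusted p = 0.0131) and was called under all 12 alternatives. Of the 30 effectors and modulators of Eph signalling listed, all were tested and none was called by edgeR, 8 having an unadjusted p under 0.05, a share near the 24.2% of all genes. DESeq2 called 5 of them, 4 higher and 1 lower, against 9.64% of all genes in either direction. Their median log2 fold change was −0.13, with 10 fitted higher and 20 lower, and 51.4% of all genes tested were fitted lower. Promoter peaks in NSC were found at *Ephb2* among the EphB receptors, at *Efna3*, *Efna5* and *Efnb1* among the ligands, and at 4 of the 30 effectors (13.3%, against 8.83% of all protein-coding genes). In NSC Bmi1over they were found at *Efna5* and at 2 of the effectors (6.67%, against 4.38%).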

How the data were processed

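The authors deposited STAR read counts per gene for RNASeq, raw and before the biotype filtering of the study's methods, from reads trimmed with Trim Galore and aligned to mm10. The annotation given to STAR is not given in the sources used here. For ChIPSeq the authors used Bowtie2 (version 2.3.4 in the submitters' processing notes) and MACS2 in broad mode on 1 library of each condition. Each deposited peak carries a fold enrichment, which is a ratio to the background, and p and q as −log10 values.

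The unstranded count column was used, since the TruSeq RNA kit named in the study's methods does not mark strand. Reads not on a gene were left out, after which 65.9% to 72.2% of the reads remained. Of 50686 identifiers, 50462 matched GENCODE vM21, which is on the build of the files, and no peak passed a chromosome end. With edgeR 4.0.16 in R 4.3.3, the 15521 genes kept by filterByExpr were scaled by TMM factors and compared by the quasi-likelihood F-test on group alone, at a Benjamini-Hochberg adjusted p of 0.05. Standard errors were derived from the fold change and its F statistic. Levels per kilobase used the union of annotated exons. A promoter peak overlapped by at least 1 bp the 5 kb around any annotated TSS.

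Alternatives were DESeq2 1.42.0 and its size factors, scaling by library size, looser and stricter count filters, summed stranded columns, a fit restricted to protein-coding genes, a replicate block, leaving out each library, stricter peak limits and other promoter windows. Named were the 9 receptors, the ephrin A ligands, called genes of the Eph pathway list, the 3 genes most like *Epha2* and *Epha5*, and *Bmi1*. These members and lists were chosen with earlier results of these data known. The study's text calls the cultures biologically independent. Protein sequences were not used here.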

Additional observations from a re-analysis of the deposited data

How the results depend on the processing

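*Epha2* kept its direction and its side of the threshold under all 12 alternatives, with a log2 fold change between 1.11 and 1.32, and *Epha3*, *Epha4* and *Epha5* passed under none of the 12. *Epha1* and *Epha10* passed under none of the 10 that gave them an adjusted p, since DESeq2 gave none and the filter of at least 1 CPM removed both. The number of genes called, 334 in the main setting, was 1496 with DESeq2's Wald test, 537 with library size alone, 2356 with no filter on low counts, and between 176 and 2546 with each library left out (176 without NSC replicate 1, 1461 without NSC replicate 2, 2546 without NSC Bmi1over replicate 1). In these fits the lone library of a group is assumed to vary like the other group. The number of EphA receptors called, 1 in the main setting, was 2 with DESeq2 and with no filter on low counts, and between 1 and 2 with each library left out, the other receptor being *Epha7*, called without NSC replicate 2 and without NSC Bmi1over replicate 1. With the replicate block, 3459 genes and 2 EphA receptors were called, again *Epha2* and *Epha7*. The same-numbered libraries share only a number, and their deviations correlated at r = 0.235 over 15521 genes. The log2 fold change of *Epha5* changed sign with library size alone (−0.0080). That of *Efna3* did so with the stranded columns summed (0.065), and with each library left out it lay between −0.14 and 0.011. With peaks of at least 1000 bp, *Epha7* was the 1 receptor with a gene-body peak in NSC, and the 1 receptor with a promoter or gene-body peak in NSC Bmi1over. With a fold enrichment of at least 5, it was the 1 receptor with a promoter or gene-body peak in NSC, against 2 (*Epha7* and *Epha8*) in NSC Bmi1over, so that 3 against 2 turned to 1 against 2. Apart from the construction of each alternative, the cause of these moves was not tested. *Epha8* and *Epha6*, with 4 and 0 reads in all libraries together, were not kept for the test in the main setting. Whether *Epha6* is absent or below the limit of the counts cannot be told from them.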
